A study of Mus musculus with 8 samples.

Results

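Fat1, Fat4, Dchs1 and Pcdh18 encode large cell-surface proteins of the cadherin superfamily. Their m6A peaks were examined in mouse primary hepatic stellate cells, the retinoid-storing pericytes of the liver, cultured for 7 days so that they activated by themselves. Mice were C57BL/6J, either WT (control) or with an HSC-specific Mettl3-knockout (cKO), where Mettl3 is the catalytic subunit of the nuclear m6A methyltransferase. The 8 libraries comprised 2 of input and 2 of m6A-precipitated RNA for either genotype. The data analysed are the peaks that the authors called once for a genotype, with no value per library. The sources used here do not give the driver of the knockout or the number of animals behind a library.

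The 4 genes were chosen by their symbols, with earlier results of these lists known, among them the number of peaks and the best folds of Fat1. Their presence in the lists, their peak counts and their folds are therefore a description and carry no test. The genes held 24 of the 8397 peaks of the control list and 8 of the 6709 peaks of the cKO list. A fold is the authors' enrichment of a peak, read here as precipitated over input RNA within 1 genotype. A less abundant transcript and a less methylated one cannot be told apart from a peak list, since RNA levels were not analysed here. Positions are given in the mm10 build, counted from 1. Distances and stretches given in bp are genomic and can include introns, so they are not lengths of mRNA.

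FAT1 and FAT4 are giant atypical cadherins whose extracellular part is a long chain of cadherin repeats. FAT4 on one cell binds DCHS1 (Dachsous) on the next, and this pair orients cells within tissues. In Drosophila the Fat and Dachsous proteins also act upstream of the Hippo kinases, which hold back Yorkie, the fly relative of the coactivator YAP. The intracellular tail of FAT1 binds actin regulators of the Ena/VASP family. PCDH18 is a protocadherin of the non-clustered delta group, a shorter relative with fewer repeats. m6A is laid down co-transcriptionally and is dense in long internal exons and near stop codons.

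Marker genes of the labelled cell type and of other liver cells were looked up by whether they carried a peak. A gene without a peak may still be expressed, so these counts cannot check the cell type. Of 15 stellate cell markers, 11 had a control peak and 13 a cKO peak, including Des, Pdgfrb, Hand2, Lhx2 and Col1a1, and Cygb had none in either list. None of 8 hepatocyte markers had a peak. Of 7 endothelial markers, 4 had a control peak and 3 a cKO peak, among them Cdh5 (4 and 3 peaks) and Pecam1 (3 and 2). Of 7 macrophage markers, 1 had a peak in each list (Csf1r in control, Cd68 in cKO), and of 4 cholangiocyte markers only Krt19 had a peak, in the cKO list. How much RNA came from other cell types was not tested.

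The only genomic sequence at hand that lies under a peak of these genes is the beginning of a long Fat1 block, which the peaks of both genotypes cover. It comes from the RefSeq promoter table (GRCm38.p6, the mm10 build). It shows where the second block of the first Fat1 peak of either list begins, and the first letters of that block. The control and cKO peaks there both consisted of a block of 85 nucleotides on chromosome 8 (44935537 to 44935621) and a second block that began at position 44950196 on the plus strand. In the 30 bases around that position (44950176 to 44950205), the capitals mark the beginning of the peak block, and the lower-case letters before it end in AG, the usual end of an intron.
Fat1 block boundary: ttcttcttcttctattacagGTGGCCAGGA

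In the next sequence, the beginning of the block from 44950196 to 44950257, the capitals mark matches to DRACH, the consensus around methylated adenosines (A, G or T, then A or G, then A, then C, then A, C or T), searched on the transcript strand only.
Fat1 block, 5′ end: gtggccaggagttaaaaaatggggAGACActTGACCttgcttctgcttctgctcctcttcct

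The window of 62 bases held 2 matches, AGACA at position 25 and TGACC at position 32, counted from 1 at the 5′ end of the block. Both lie after the ATG at position 19, which is the earliest in the window, and the 2 matches do not overlap. The stronger form GGAC was absent from the window. Of the 32851 promoter windows in the table, 61.2% held at least 1 DRACH match in their last 62 bases and 26.6% held at least 2. The same table places a Fat1 transcript start at 44950208, inside the printed block. Its windows thus lie around transcript starts and are not all exon sequence. The matches are letters and do not locate a methylated base.

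Fat1 carried 14 control peaks and 5 cKO peaks, all labelled as coding sequence in the deposited lists (ENSMUSG00000070047). The lists give 1 such label a peak, which need not hold for all of its bases. Transcript parts of peaks below are these labels. The control peaks had folds from 5.09 to 1990 with a median of 120, and 8 of them reached 100 or more. The cKO peaks had folds of 25.7, 14.3, 10.1, 8 and 10.8 from the 5′ to the 3′ end. Over all genes, folds were also lower in the cKO list, with a median of 13.2 against 19.3 in the control list. The third quartiles were 26.8 and 46.7. Fat1 peaks covered 8289 nucleotides of exon in control cells and 994 in cKO cells, which is 12% of the control length. Over all genes, the length covered in the cKO list was 71.5% of that in the control list.

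Fat4 carried 6 control peaks and 1 cKO peak, all coding and each within 1 exon block (ENSMUSG00000046743). Its control folds were 10.5, 29.8, 6.44, 15.7, 34.2 and 11.3 from the 5′ to the 3′ end, and none reached the Fat1 median. Its single cKO peak had a fold of 40.5. Dchs1 had 1 control peak, of fold 6.84, and none in the cKO list (ENSMUSG00000036862). Pcdh18 had 3 control peaks, of fold 1880, 85.4 and 86.6 from the 5′ to the 3′ end, and 2 cKO peaks, of fold 8.83 and 24.3 (ENSMUSG00000037892). The control peaks of Pcdh18 were coding, whereas its cKO peaks lay in the 5′ UTR and the 3′ UTR.

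**Figure D1:**
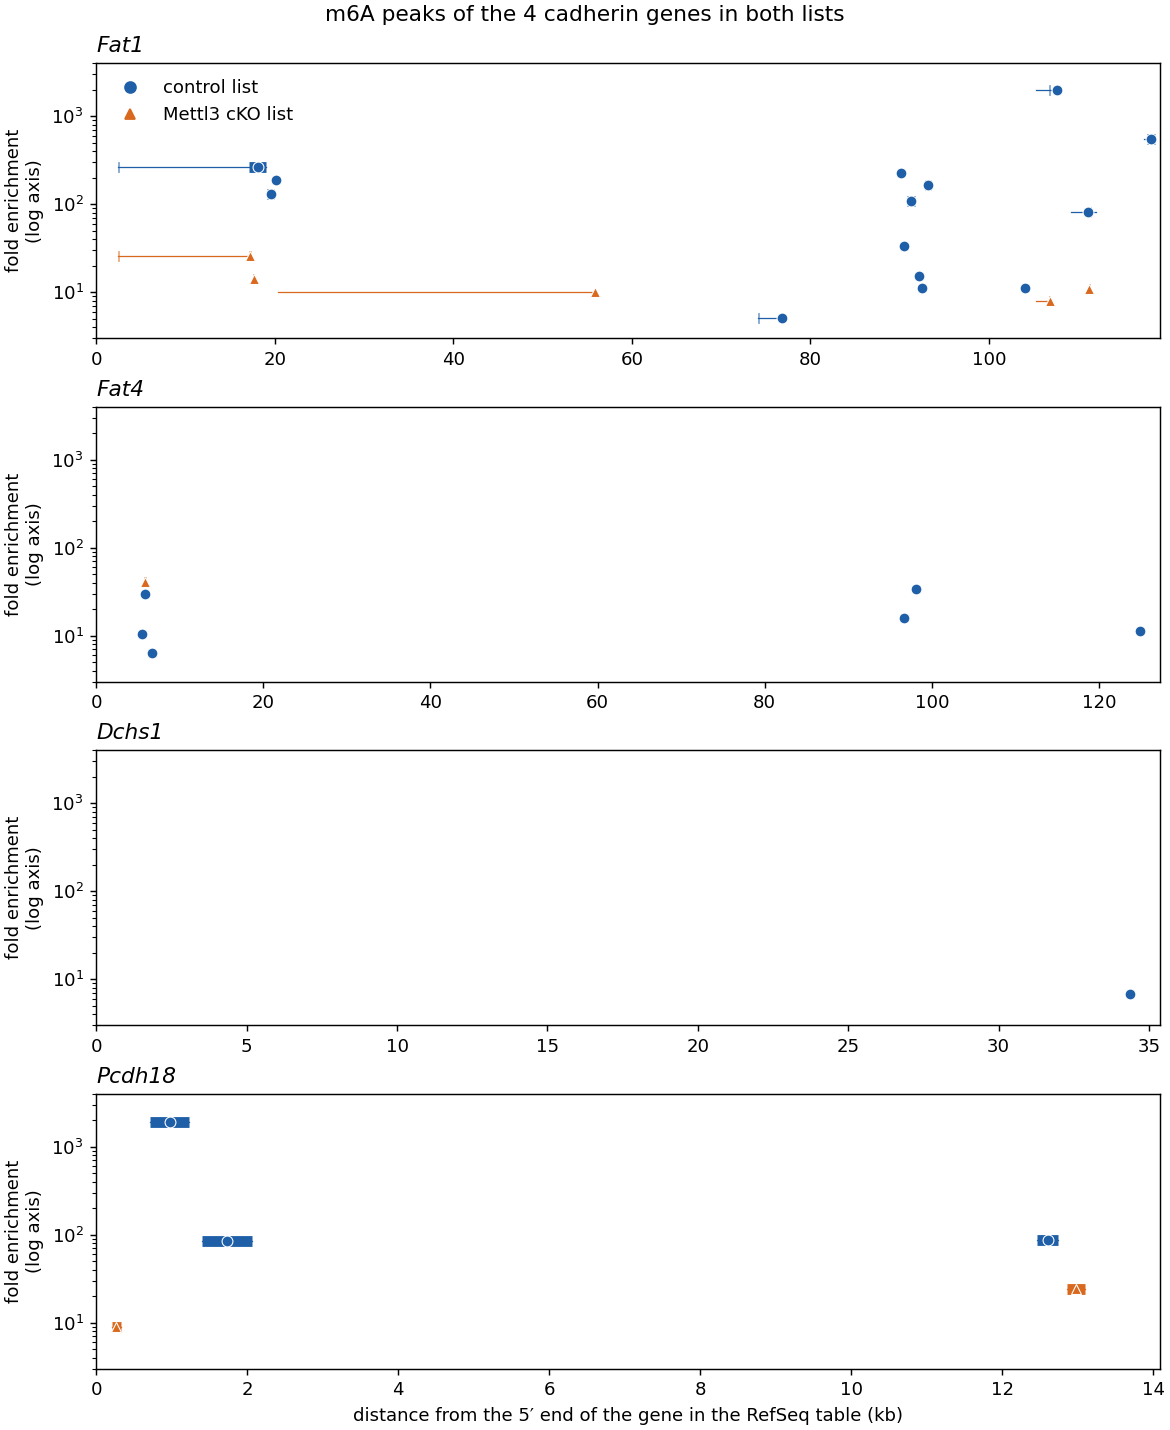
Peaks of Fat1, Fat4, Dchs1 and Pcdh18 by distance from the 5′ end of the gene in the RefSeq table (kb, x axis) and by fold enrichment (log axis). Circles are control peaks and triangles cKO peaks, placed at the largest exon block, with thick bars for exon blocks and thin lines for the introns between them; Fat1 has 14 control peaks up to fold 1990, and its 5 cKO peaks lie at 25.7 or below.

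With an overlap of exon blocks of at least 1 bp on the same strand, 4 of the 24 control peaks were met by a cKO peak (16.7%, exact Clopper-Pearson 95% interval 4.74 to 37.4, which covers counting error only). These were 3 of 14 in Fat1, 1 of 6 in Fat4, 0 of 1 in Dchs1 and 0 of 3 in Pcdh18. Over all genes, 33.7% of control peaks were met, which lies inside that interval. All 24 control peaks of the 4 genes were coding, and 38.4% of the coding control peaks of all genes were met, which lies just above it. In the other direction, 5 of 8 cKO peaks were met by a control peak (62.5%, 24.5 to 91.5), against 41.8% of all cKO peaks. The peaks within a gene share a transcript and are not independent, which the intervals do not take into account. At gene level, 3 of the 4 genes also had a peak in the cKO list, against 56.1% of all genes with a control peak. In Pcdh18, 1 of these 3, no cKO peak overlapped a control peak.

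The Fat1 gene was divided into 3 parts along its genomic length, introns included. The 5′ part, from 44935537 to 44989009, held 3 control and 3 cKO peaks. The middle part, from 44989010 to 45038367, held 8 control peaks and no cKO peak. The 3′ part, from 45038368 to 45051717, held 3 control and 2 cKO peaks. The middle part was bounded by the widest gap between neighbouring cKO peaks, a choice made after the positions were seen.

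In the 5′ part, the control peaks lay almost end to end over a stretch of 3286 bp (44950196 to 44953481) and had folds of 265, 132 and 186. They covered 92.4% of that stretch, and the cKO peaks covered 14.3% of it. The control peak of fold 265 was the widest of the 4 genes at 2040 nucleotides, the tenth widest of the whole control list, and held both the 62 bases printed above and 2 separate cKO peaks. These cKO peaks, of fold 25.7 and 14.3, covered 331 and 181 nucleotides and lay wholly inside it. The cKO peak of fold 10.1 at the other end of the stretch was separated from the last control peak by 29 bp and continued over a junction to position 44989009. It is the only Fat1 cKO peak with no control counterpart.

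The middle part held a dense run of 6 control peaks in 3450 bp, each a single block (45023124 to 45026573). Their folds were 224, 33.4, 109, 15.3, 11.1 and 165 from the 5′ to the 3′ end. Together they covered 2555 nucleotides, 74.1% of the run, with gaps of 89 to 239 bp between them. The highest folds stood at both ends of the run and near its middle. The nearest cKO peak lay 11794 bp downstream of the last of these 6 peaks. The remaining control peaks of the middle part had folds of 5.09 (45007275 to 45009973, across a junction) and 11.3 (45037016 to 45037166).

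**Figure D2:**
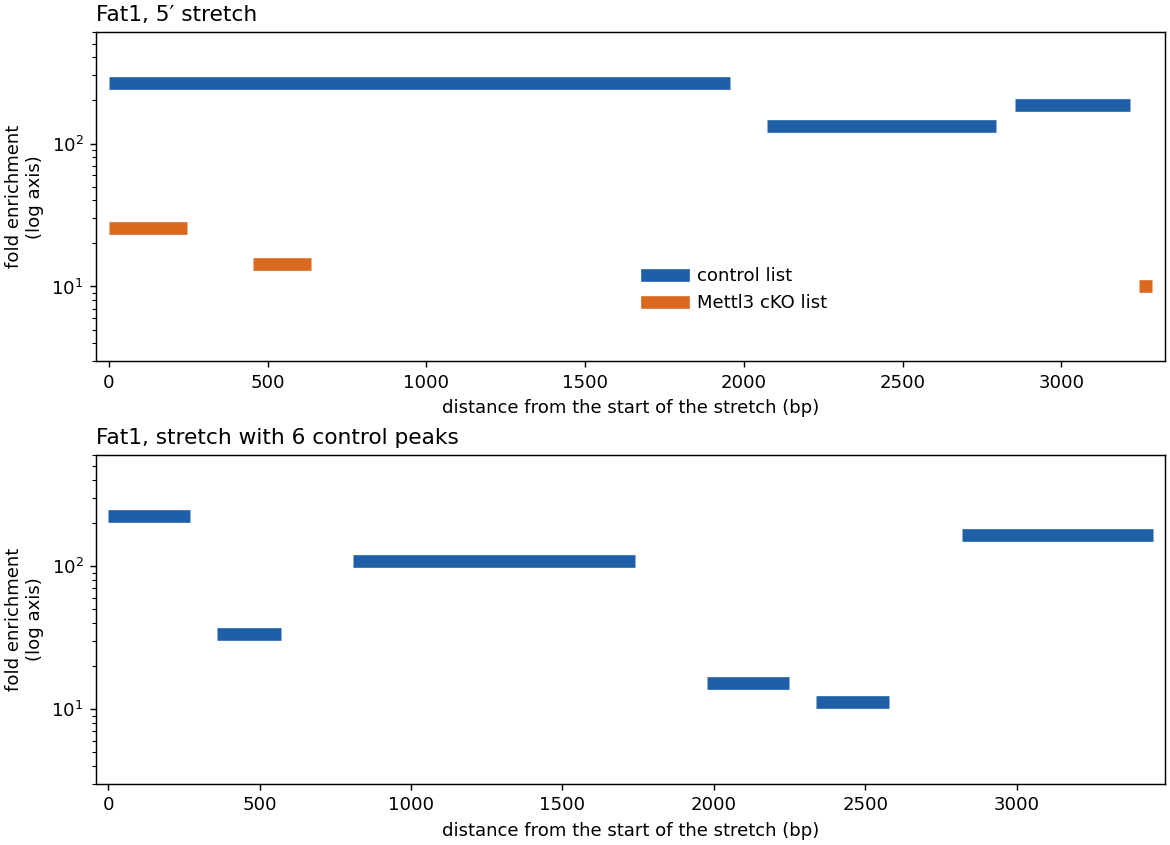
Exon blocks of Fat1 peaks in the 5′ stretch (3286 bp, upper panel) and in the dense run (3450 bp, lower panel), by distance from the start of the stretch in bp (x axis) and fold enrichment (log axis). Each bar is 1 block at the fold of its peak; the 5′ stretch shows control blocks at 265, 132 and 186 above cKO blocks at 25.7, 14.3 and 10.1, and the dense run shows 6 control blocks and no cKO block.

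The 3′ part held the highest fold of the 4 genes, 1990, in a control peak of 630 nucleotides in 3 blocks (45038368 to 45040981). It ranked 8 among the folds of all control peaks. The cKO peak that met it, of fold 8, shared 180 nucleotides and began at the same position, and it stopped inside the second block, so the third block of 448 nucleotides was in the control peak alone. The next control peak, of fold 82.3 and 661 nucleotides (45042309 to 45045048), held a cKO peak of fold 10.8 that spanned 181 nucleotides. The last control peak, of fold 550 and 960 nucleotides (45050478 to 45051717), had its nearest cKO peak 6055 bp upstream.

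All 4 Fat1 cKO peaks with a counterpart lay wholly inside a control peak, whereas 36.3% of all coding cKO peaks with a counterpart did. The cKO peaks of the giant gene Ahnak also lay inside control peaks over their whole length. The Fat1 cKO peaks with a counterpart spanned 180 to 331 nucleotides, and the 3 control peaks that held them spanned 630 to 2040. Fat1 peaks that crossed a junction and those that did not were also counted apart, and coding peaks of all genes differed in the same direction. Of the 5 control peaks with more than 1 exon block, 3 were met (14.7 to 94.7%), against 55.7% of such coding peaks of all genes. Of the 9 control peaks in a single block, 0 were met (0 to 33.6%), against 26.4% of such coding peaks of all genes. Both all-gene shares lie inside the intervals for Fat1.

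Fat4 differed from Fat1 in its one shared site. Near the 5′ end, control peaks of fold 10.5, 29.8 and 6.44 lay between 38890085 and 38891373 on chromosome 3. The middle one (38890445 to 38890624) was met by the cKO peak of fold 40.5 (38890445 to 38890684), which began at the same position and contained it. At this site the cKO peak was the wider, 240 against 180 nucleotides, the reverse of the Fat1 pairs. It stood at percentile 84.2 of the folds of its own list, and its control counterpart at percentile 64.0 of its list. Fat1 ran the other way at its shared sites, with percentiles of 96.5, 99.9 and 85.4 for the control peaks and 23.1 to 73.8 for their cKO counterparts.

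The Fat4 control peaks of fold 15.7 and 34.2 lay far downstream (38981310 to 38982897), and no cKO peak was nearer than 90625 bp. The control peak of fold 11.3 near the 3′ end (39009529 to 39009678) coincided with a control peak of the predicted gene Gm43539 on the minus strand at the same fold of 11.3 (39009514 to 39009681). The sources used here do not say whether reads were counted by strand, so the gene of this peak is uncertain. Low folds of this kind are shared by many peaks: 128 control peaks had a fold of exactly 11.3, and 102 had 6.44.

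The Dchs1 peak (105753918 to 105754038 on chromosome 7, minus strand) was among the weaker peaks of the 4 genes, beside the Fat4 peak of fold 6.44 and the Fat1 peak of fold 5.09. Its fold of 6.84 stood at percentile 9.7 of the control list and was shared by 126 control peaks, and the authors' p-value for it was 0.026. It spanned 121 nucleotides near the 3′ end of the gene, 34317 bp from its 5′ end in a gene of 35367 bp. The absence of a cKO peak at such a site does not show a difference between the genotypes.

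In Pcdh18, on the minus strand of chromosome 3, control and cKO peaks lay side by side without touching. The control peak of fold 1880 (49756156 to 49756666, 511 nucleotides) ranked 10 among the folds of all control peaks and lay 717 bp from the 5′ end of the gene. The control peak of fold 85.4 next to it (49755317 to 49755976) spanned 660 nucleotides. The cKO peak of fold 8.83 lay 388 bp upstream of the former, in the 5′ UTR (49757055 to 49757175), between 141 and 261 bp from the transcript start in the RefSeq promoter table. At the other end of the gene, the control peak of fold 86.6 (49744645 to 49744914) and the cKO 3′ UTR peak of fold 24.3 (49744285 to 49744525) were 119 bp apart. The fold of 8.83 was shared by 117 cKO peaks.

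Ranked within their own lists, Fat1 and Pcdh18 control peaks stood mostly high and those of Fat4 and Dchs1 lower. Of the 24 control peaks, 9 had a fold of 100 or more, 8 in Fat1 and 1 in Pcdh18, against 11.8% of all control peaks. Since Fat1 was chosen with its best folds known, nothing is read from that count. Of the 8 cKO peaks, 0 reached 100, and 4.55% of all cKO peaks did. The median percentile was 90.3 for Fat1 control peaks, 35.8 for Fat4 and 86.2 for Pcdh18, and it was 40 for Fat1 cKO peaks. The folds of the 2 lists were not subtracted from each other, because their commonest low values were spaced by 0.40 to 0.41 in the control list and by 0.36 to 0.37 in the cKO list.

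**Figure D3:**
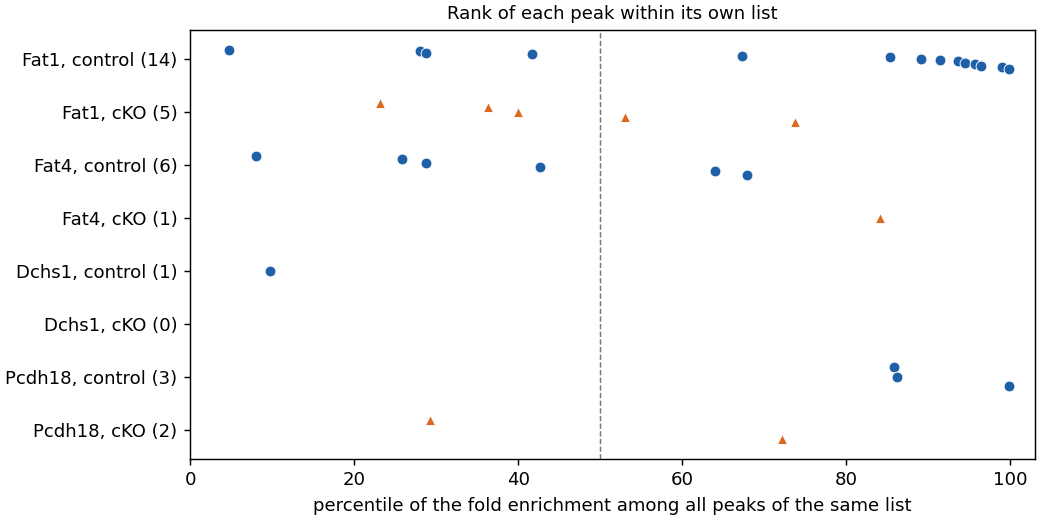
Percentile of each peak's fold enrichment among all peaks of the same list (x axis, percent), for each gene and list, with the number of peaks in brackets. Circles are control and triangles cKO peaks; most Fat1 and all Pcdh18 control peaks sit above percentile 85, the Fat4 and Dchs1 control peaks sit at 67.9 or below, and the dashed line is the middle of a list.

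The strong control peaks of these genes were also wide. The 9 control peaks of fold 100 or more spanned 271 to 2040 nucleotides, and every Fat4 and Dchs1 control peak spanned 121 to 180. The median control peak of the whole list spanned 211 nucleotides. Wide peaks can hold several methylated sites, so a peak count does not count sites.

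Among the 172 genes with 5 or more control peaks, only Dst and Zfhx3 had more of them than Fat1, and Macf1 had as many. These genes were chosen by their control peaks alone, which by itself favours fewer peaks and less covered length in the cKO list. No loss is therefore read from the medians of the group. A gene of this group had a median of 40% as many cKO as control peaks (quartiles 20 and 66.7), and Fat1 had 35.7%. The share of control peaks met was 33.3% at the median (16.1 and 57.1) and 21.4% in Fat1. By exonic length covered in the control list, Fat1 was second to Ahnak among these 172 genes. The length covered in the cKO list was 39.8% of control at the median (16.4 and 67.3) and 12% in Fat1, and 33 of the 172 genes were lower. Fat1 thus lay within the quartiles by number of peaks and below the lower quartile by length.

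The genes nearest to Fat1 in the pair of peak numbers, within these 2 lists, were Zfhx3 (15 control and 6 cKO peaks), Bod1l (11 and 6) and Kmt2d (13 and 2). They covered 40.6%, 62.7% and 10.4% of their control length in the cKO list. Their highest control folds were 175, 305 and 76.7, below the 1990 of Fat1. The giant cytoskeletal linkers gave 17 and 9 peaks for Dst, 14 and 10 for Macf1 and 10 and 8 for Ahnak. Of their 41 control peaks, 18 were met, against 33.7% of all control peaks and 38.4% of coding ones. Ahnak resembled Fat1 in fold and length, with highest folds of 2010 (control) and 19.9 (cKO) and with 16.3% of its control length covered in the cKO list. All 8 Ahnak cKO peaks were met, and the whole 2466 nucleotides that they covered lay inside control peaks, as in the Fat1 pairs.

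**Figure D4:**
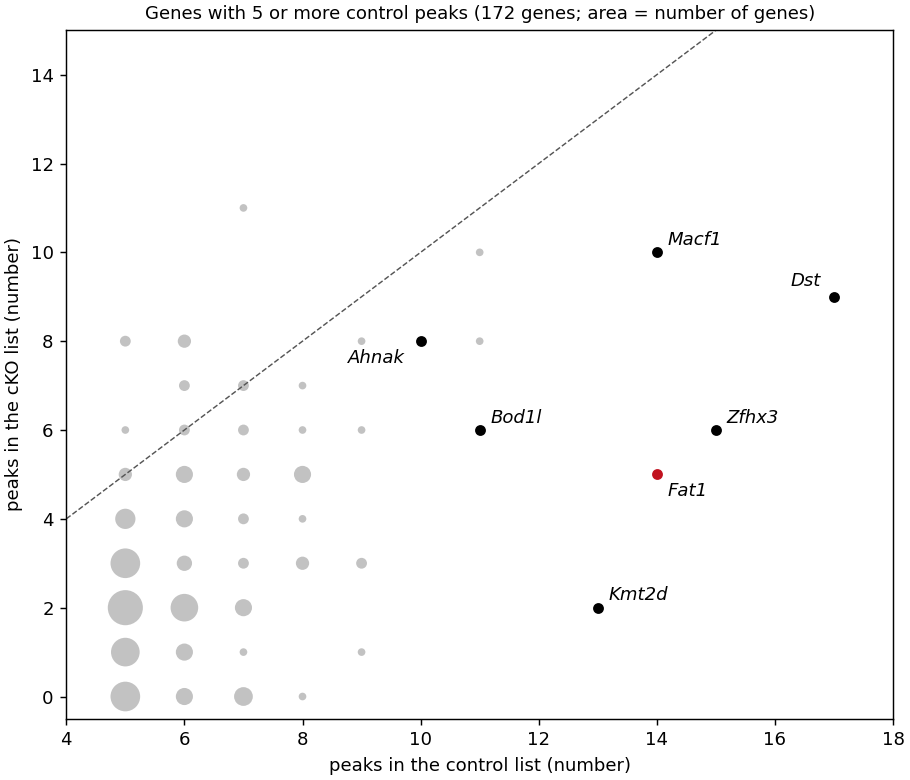
Number of peaks in the control list (x axis) and in the cKO list (y axis) for the 172 genes with 5 or more control peaks; the area of a grey circle is the number of genes at that point and the dashed line marks equal numbers. Fat1 (red) lies at 14 and 5, beside Zfhx3 at 15 and 6, and below Macf1 at 14 and 10.

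Of 10 genes of the Fat and Dachsous system, which include Fat1, Fat4 and Dchs1, 5 had a control peak. Of the 5, 4 also had a cKO peak, against 56.1% of all genes with a control peak. Besides Fat1, Fat4 and Dchs1, these were the atrophin genes Atn1 (1 control and 5 cKO peaks, highest folds 81.7 and 43.8) and Rere (4 and 2 peaks, 30.9 and 60.8), which encode nuclear corepressors; a Drosophila relative binds Fat. Fat2, Fat3, Dchs2, Lix1l and the kinase gene Fjx1, whose Drosophila counterpart modifies Fat and Dachsous, had no peak in either list.

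Of 12 non-clustered protocadherin genes, 6 had no peak in either list and 6 had a control peak. Of the latter, 2 (Pcdh18 and Pcdh1) also had a cKO peak and 4 did not. Over all genes in the control list, 56.1% were in the cKO list too. Pcdh7 had 5 control peaks with a highest fold of 246, Pcdh9 had 3 (16.5), Pcdh17 had 2 (7.65) and Pcdh10 had 1 (12.1), all without a cKO peak. Of the 15 control peaks in this list, which include the 3 of Pcdh18, 0 were met, against 33.7% of all control peaks and 38.4% of coding ones. Pcdh1 had 1 peak in each list, at fold 10.5 (control, 3′ UTR) and at fold 9.93 (cKO, coding sequence).

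The classical cadherins and catenins, which join cells through the actin cytoskeleton, had 6 of 14 genes in each list and 5 in both. For this and the next 2 gene lists, the all-gene share of control-list genes with a cKO peak is again 56.1%. N-cadherin (Cdh2) had 3 control and 2 cKO peaks, with highest folds of 30.2 and 21.1, and 2 of its control peaks were met. Beta-catenin (Ctnnb1) had 2 and 2, with 0 met. The p120 catenin gene Ctnnd1 had 3 control peaks, up to fold 656, and no peak under its name in the cKO list. However, 1 of its control peaks was met by a cKO peak listed under another gene name. Of 13 planar polarity genes, 4 had a control peak and 3 a cKO peak, with 2 in both lists. Among them were Vangl1, Prickle2 and the frizzled receptor gene Fzd6, which was in the control list alone (20.9). Of 7 partners of the FAT1 tail, 4 had a control and 4 a cKO peak, with 3 in both lists. Vasp had 2 and 3 peaks, Homer3 1 and 2, and Enah 1 control peak alone (23.8).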

How the data were processed

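The authors deposited 1 peak list a genotype. Per the file headers, each peak has a gene, a strand, exon blocks, a transcript part, a p-value (in a column named score), the log10 of that p-value and of a false discovery rate, and a fold enrichment, taken here as a ratio. The log10 columns of the deposited lists were treated as a score, because 57 control and 44 cKO cells of the log10 p held a spreadsheet error and were ranked as the smallest p. Tools and build named in the submitters' processing notes, without roles, are HISAT2, HOMER and mm10. The sources used here do not give the peak caller or how it used the replicates, and read depth is unknown. Per the labels' protocols, 100 µg of total RNA was used for a library, read as 150-bp pairs.

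Block starts were read as 0-based and printed 1-based. Overlap used bedtools 2.31.1 and was tested on simulated data. Computation used Python 3.11.15, pandas 2.3.3, numpy 2.4.6, scipy 1.17.1 and matplotlib 3.10.9. With 1 list a genotype, no difference between genotypes has a replicate error and none was tested. The members, gene lists and comparison groups were chosen with earlier results of these data known. By rule, all members were named with their peaks, other genes came from the fixed lists, and the 3 genes nearest to Fat1 by peak numbers were taken among genes with 5 or more control peaks. Alternatives changed the overlap and the threshold of the lists.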

Additional observations from a re-analysis of the deposited data

How the results depend on the processing

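When a pair had to share 50% or more of the exonic length of each peak, the met control peaks of the 4 genes fell from 16.7% to 4.17% (1 of 24) and the met cKO peaks from 62.5% to 12.5% (1 of 8). All Fat1 pairs were lost under that rule, because its cKO peaks are short and lie inside long control peaks, and the Fat4 pair stayed; over all genes the shares were 22.0% and 27.5%. Outer spans in place of blocks gave the same counts (33.8% and 41.9% over all genes). Counting peaks within 100 bp gave 5 of 24 and 6 of 8, which made all 5 Fat1 cKO peaks met (35.5% and 43.6% over all genes). With folds of at least 10 in both lists, 3 of 21 control and 4 of 6 cKO peaks were met, against 26.2% and 38.9% over all genes. With the 5000 peaks of smallest p of each list, 4 of 17 and 5 of 7 were met, against 39.7% of either list over all genes. The number of peaks of the 4 genes ranged from 17 to 24 in the control list and from 6 to 8 in the cKO list under these thresholds and when peaks within 200 bp were merged. The Dchs1 peak was absent under both stricter thresholds, Fat4 kept 2 of its 6 control peaks among the 5000, and Pcdh18 kept 1 of its 2 cKO peaks under either. No paired analysis was possible because each genotype has 1 peak list with no value per replicate, and for the same reason no replicate could be left out.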
